A study of Mus musculus with 20 samples.

Results

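The 8 genes described here are the suppressors of cytokine signalling Socs1 to Socs7 and Cish, the cytokine-inducible SH2-containing protein, out of 49568 genes in the count tables. They were taken by symbol, as a family, because Socs2 separated long-term haematopoietic stem cells (LT-HSC) from multipotent progenitors (MPP) more sharply than other genes. That choice used the measured difference between the populations, so every difference of a member between LT-HSC and MPP is given below as a description, with no test. The difference between genotypes was not used for the choice and was tested. All 8 members were present in both tables and all 8 passed the filter on low counts in every comparison.

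Messenger RNA was sequenced from LT-HSC and MPP sorted from mouse bone marrow. The 4 groups were LT-HSC and MPP of C57BL/6 wild-type mice (WT) and LT-HSC and MPP of mice labelled as knockouts of Ahr (AhR-KO in the labels, Ahr-KO here), the gene of the aryl hydrocarbon receptor, a ligand-activated transcription factor. All animals were untreated and 8 to 12 weeks old, the labels list C57BL/6 as the strain, and each group holds 5 libraries. The sources used here do not give the Ahr allele, the sort markers or the number of animals behind a library, and the protocol text speaks of dendritic cells and 3 samples for each group, which does not match these libraries.

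Library totals ranged from 13712668 to 21622653 counts. Values per library are counts scaled to a common library total (CPM), with totals adjusted by the trimmed mean of M values (TMM), and errors are SDs over the 5 libraries of a group unless an SE is named. The gene Ahr was not lower in the libraries labelled Ahr-KO, at 23.6 ± 4.14 CPM against 26.5 ± 6.35 in WT LT-HSC and at 15.9 ± 3.91 against 9.81 ± 3.66 in WT MPP (SD, n = 5 each; edgeR adjusted p = 0.861 and 0.663). A count over the whole gene need not fall when only part of it is deleted, so this value does not check the labels, and "Ahr-KO" below means the label. The summed level of 15 LT-HSC markers was 3189 to 4762 CPM in LT-HSC and 1431 to 2598 in MPP, and that of 9 MPP markers was 604 to 1047 in LT-HSC and 2861 to 4119 in MPP, so both populations matched their labels on these lists. Library WT LT-HSC 1 correlated least with its group (r from 0.909 to 0.918 on log2 CPM, against at least 0.94 for every other pair within a group). Ahr-KO LT-HSC 2 and 3 carried 971 and 1476 CPM of 11 neutrophil markers, where the other LT-HSC libraries carried 7.18 to 93.8 with at most 2 of the 11 at 0. The same 2 libraries had 2559 and 3061 CPM of 9 erythroid markers, against 112 to 1891 in the other LT-HSC libraries, and 631 and 640 CPM of 12 monocyte and macrophage markers, against 46.2 to 140. The 10 stromal and endothelial markers summed to 3841 CPM in Ahr-KO LT-HSC 3 and to 94.7 to 172 in the other 9 LT-HSC libraries. The labels do not say that libraries came from separate animals, so the p-values measure only the spread between these samples, which may be technical. In sorted bulk RNA, fewer cells that express a gene and less RNA per cell cannot be told apart.

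Cytokines such as interleukins and interferons bind receptors that carry JAK kinases, and the activated JAKs phosphorylate STAT transcription factors. STATs then switch on Cish and several Socs genes, whose proteins bind phosphorylated receptors or JAKs through an SH2 domain and recruit a ubiquitin ligase through a carboxy-terminal SOCS box, which closes a negative feedback loop. Cish and Socs2 are known targets of STAT5 and Socs3 of STAT3, while Socs4 to Socs7 act mostly on receptor tyrosine kinases and their adaptors and are less tied to STATs.

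Sequence around or before the start of 3 cytokine-inducible members is shown because STAT binding near the start is the textbook route to their induction. RefSeq promoter windows, from 250 bases before to 50 bases after a transcription start (GRCm38.p6), were matched for 4 of the 8 members, Cish, Socs1, Socs3 and Socs4. They were searched on both strands for the STAT dimer motif TTCNNNGAA, the interferon-type motif GAAANNGAAA and the core GCGTG that AHR binds. In the stretches below, written 5′ to 3′ on the gene's strand, capitals mark matches to the STAT motif in Cish and Socs3 and to the interferon-type motif in Socs1.
Cish: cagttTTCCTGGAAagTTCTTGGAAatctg
Socs3: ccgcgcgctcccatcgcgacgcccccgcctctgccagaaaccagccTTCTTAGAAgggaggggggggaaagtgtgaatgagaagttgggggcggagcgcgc
Socs1: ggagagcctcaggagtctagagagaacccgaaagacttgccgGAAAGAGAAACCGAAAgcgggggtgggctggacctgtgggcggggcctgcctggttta

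The Cish stretch is chr9:107296654-107296683 on the plus strand. It holds TTCCTGGAA and TTCTTGGAA, at positions 1 to 9 and 12 to 20 counted from the RefSeq start, and lies wholly within an exon of the longer gene model in GENCODE M21. The Socs3 stretch is chr11:117969466-117969566 on the minus strand, within the extent of Socs3 in GENCODE but outside its exons, with 1 match, TTCTTAGAA, from 154 to 146 bases before the RefSeq start. The STAT motif occurs in 8.30% of the 32851 RefSeq mouse promoter windows of this length, and 0.457% hold 2 or more matches, as Cish does. The Socs1 stretch is chr16:10785562-10785661 on the minus strand, upstream of the gene, and its 2 matches GAAAGAGAAA and GAAACCGAAA overlap in 4 bases. The interferon-type motif occurs in 3.44% of windows. GCGTG, present in 32.4% of windows, was found once among the matched members, on the opposite strand of Socs4, from 192 to 188 bases before its start. No match says only that the letters are not in the window, and none of these matches was tested for binding.

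Socs2 was high in LT-HSC and low in MPP in both genotypes. Socs2, on chromosome 10 from 95385362 to 95417180 on the minus strand (GENCODE M21, GRCm38), encodes the feedback inhibitor of growth hormone signalling. It had 46.8, 42.8, 45.6, 35.4 and 45.3 CPM in WT LT-HSC 1, 4, 5, 6 and 8. In Ahr-KO LT-HSC 1, 2, 3, 4 and 7 it had 52.5, 42.1, 45.5, 46.6 and 50.2 CPM. The 5 WT MPP libraries had 7.57, 6.68, 6.63, 7.10 and 6.18 CPM, and the 5 Ahr-KO MPP libraries 7.80, 5.91, 8.51, 6.62 and 7.07. The lowest LT-HSC library therefore lay above 35 CPM and the highest MPP library below 9, and within each population the genotypes overlapped.

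The fitted level of Socs2 was 6.32-fold higher in LT-HSC than in MPP of WT mice, a log2 difference of -2.66 ± 0.12 (SE), and 6.59-fold higher in Ahr-KO, at -2.72 ± 0.12 (SE). By p-value it ranked 1 of 17416 genes in each genotype, which is the value it was chosen for, whereas by size of the fall it ranked 307 and 315. The spread between replicates was small in each group, with a coefficient of variation of 10.6% and 8.59% in WT and Ahr-KO LT-HSC and 7.73% and 14.1% in the MPP groups. A long noncoding RNA on the opposite strand, 5730420D15Rik, starts 194 bases from Socs2. It held 0 to 14 counts per library.

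Cish, the other STAT5-induced member, was also high in LT-HSC. Cish lies on chromosome 9 from 107296026 to 107302784 on the plus strand. It had 33.2, 44.7, 40.7, 36.8 and 49.6 CPM in WT LT-HSC 1, 4, 5, 6 and 8, and 36.8, 27.6, 22.0, 31.5 and 40.6 in Ahr-KO LT-HSC 1, 2, 3, 4 and 7. In MPP it had 12.1, 10.3, 7.37, 10.1 and 11.3 CPM in WT and 7.24, 11.7, 10.4, 11.7 and 14.9 in Ahr-KO. All 10 LT-HSC libraries lay above all 10 MPP libraries, and the 2 lowest of the LT-HSC libraries were Ahr-KO 2 and 3, those with high neutrophil, erythroid and monocyte markers. The part of these cells in the Cish level was not tested.

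The fitted Cish level was 4.01-fold higher in LT-HSC than in MPP of WT mice (log2 -2.0 ± 0.20, SE) and 2.83-fold higher in Ahr-KO (log2 -1.5 ± 0.19, SE). Because the library kit keeps no strand, reads of genes that overlap Cish cannot be told apart from its own. The overlapping pseudogene Gm17040 shares 1167 exonic bases with Cish and held at most 7 counts per library. The antisense gene Gm17041 shares 1459, its whole extent, and was at 0 in every library. How reads in shared bases were counted is not given, so these low counts do not show whether the overlap alters the Cish count.

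Socs1, on chromosome 16 from 10782240 to 10785536 on the minus strand, blocks JAK catalytic activity directly and is induced by interferons. It had 15.9, 8.80, 12.3, 10.3 and 7.84 CPM in WT LT-HSC 1, 4, 5, 6 and 8 and 13.5, 9.20, 10.95, 11.9 and 10.5 in Ahr-KO LT-HSC 1, 2, 3, 4 and 7. In MPP it had 3.41, 4.33, 5.26, 5.50 and 5.79 CPM in WT and 6.67, 5.26, 4.03, 5.51 and 6.33 in Ahr-KO. No MPP library reached the lowest LT-HSC library, although the gap was narrow, from 6.67 to 7.84. The fitted level was 2.27-fold higher in LT-HSC than in MPP of WT mice (log2 -1.18 ± 0.21, SE) and 2.02-fold higher in Ahr-KO (log2 -1.01 ± 0.21, SE). These low levels rest on few reads, with as few as 50 counts of Socs1 in a WT MPP library, the smallest count of any member.

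Socs3, on chromosome 11 from 117966079 to 117970047 on the minus strand, also blocks JAKs and restrains signalling from the G-CSF receptor and gp130. It was the most scattered member and did not share the pattern of Socs2, Cish and Socs1. It had 2.57, 6.62, 4.28, 7.39 and 11.05 CPM in WT LT-HSC 1, 4, 5, 6 and 8 and 6.35, 9.95, 5.71, 15.6 and 13.8 in Ahr-KO LT-HSC 1, 2, 3, 4 and 7. In MPP it had 12.8, 9.61, 11.55, 6.12 and 10.04 CPM in WT and 7.24, 13.5, 4.38, 20.7 and 8.30 in Ahr-KO. All 4 groups overlapped, with coefficients of variation from 25.1% in WT MPP to 59.4% in Ahr-KO MPP.

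The fitted difference of Socs3 between MPP and LT-HSC was a log2 value of 0.65 ± 0.41 (SE) in WT and 0.07 ± 0.40 (SE) in Ahr-KO. With 1 library left out the WT value ran from 0.45 (without WT LT-HSC 1) to 0.92, and the Ahr-KO value from -0.34 (without Ahr-KO MPP 4) to 0.27, so the latter had no fixed sign. Socs3 is an acutely inducible transcript, so the summed level of 17 immediate early genes, which rise within minutes of stimulation or cell handling, is given beside it. This sum was 668 to 1568 CPM in WT LT-HSC, 510 to 975 in Ahr-KO LT-HSC, and in MPP 492 to 763 in WT and 394 to 907 in Ahr-KO. The library with the highest Socs3 of its group was also the library with the highest sum in all 4 groups, WT LT-HSC 8, Ahr-KO LT-HSC 4, WT MPP 1 and Ahr-KO MPP 4. By contrast, the lowest Socs3 of WT LT-HSC was that of library 1, which had a sum of 1149 CPM. The part of these genes in the scatter of Socs3 was not tested.

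**Figure D1:**
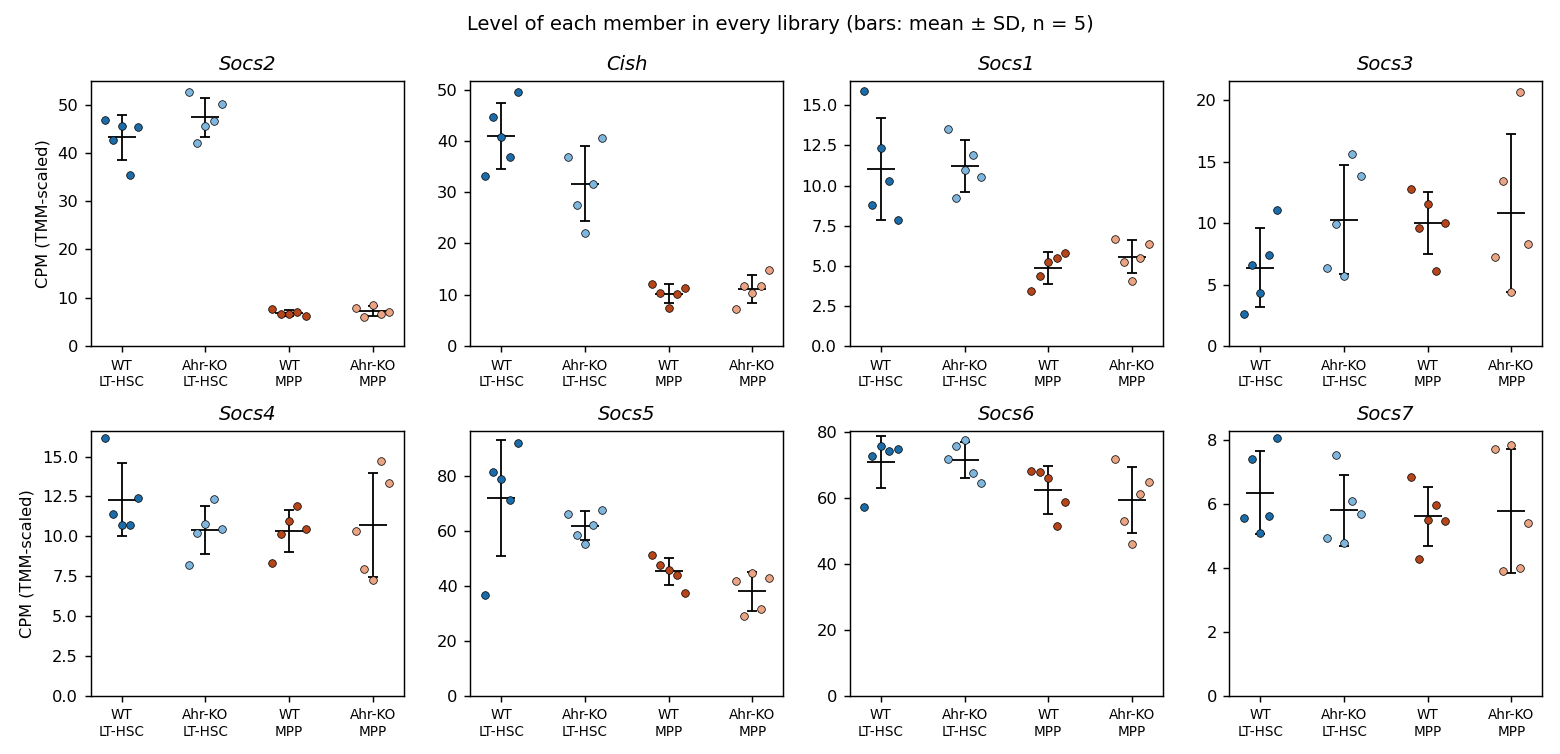
Level of each of the 8 members in every library, in CPM on TMM-scaled totals (vertical axis from 0, a scale of its own for each gene), by group (horizontal axis); points are libraries and bars the mean ± SD of 5 libraries. Socs2, Cish and Socs1 separate LT-HSC from MPP in both genotypes, Socs3 scatters in every group, and WT LT-HSC 1 is the low point of Socs5 and Socs6 in WT LT-HSC.

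Among the members that act mostly on receptor tyrosine kinases, Socs5 and Socs6 had several times the counts of Socs4 and Socs7 and varied less with the population than Socs2. Socs5, on chromosome 17 from 87107679 to 87137839 on the plus strand, restrains EGF receptor and interleukin-4 signalling. In WT LT-HSC 1, 4, 5, 6 and 8 it had 36.5, 81.6, 79.0, 71.2 and 92.0 CPM, so that 1 library lay far below the other 4. In Ahr-KO LT-HSC 1, 2, 3, 4 and 7 it had 66.1, 58.4, 55.3, 62.0 and 67.8 CPM. The MPP libraries had 37.6 to 51.2 CPM in WT and 29.2 to 44.7 in Ahr-KO. The fitted Socs5 level was 1.59-fold higher in LT-HSC than in MPP of WT mice (log2 -0.67 ± 0.18, SE) and 1.63-fold higher in Ahr-KO (log2 -0.70 ± 0.18, SE). Without WT LT-HSC 1 the WT value was a log2 difference of -0.84 and the 2 populations of WT mice did not overlap.

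Socs6, on chromosome 18 from 88665224 to 88927481 on the minus strand, encodes a protein that binds activated KIT and FLT3. It had 57.2 to 75.7 CPM in WT LT-HSC, 64.7 to 77.7 in Ahr-KO LT-HSC, and in MPP 51.5 to 68.2 in WT and 46.2 to 71.8 in Ahr-KO. Socs4, on chromosome 14 from 47276931 to 47296102 on the plus strand, restrains EGF receptor signalling and had 10.7 to 16.2, 8.17 to 12.4, 8.32 to 11.9 and 7.24 to 14.7 CPM in the same order of groups. Socs7, on chromosome 11 from 97362551 to 97398542 on the plus strand, binds adaptors of receptor tyrosine kinases and had 5.09 to 8.07, 4.77 to 7.52, 4.28 to 6.82 and 3.89 to 7.85 CPM. The populations overlapped for these 3 genes in both genotypes. Their log2 differences between MPP and LT-HSC were -0.18 ± 0.12 for Socs6, -0.25 ± 0.19 for Socs4 and -0.18 ± 0.22 for Socs7 in WT (SE), and -0.27, 0.04 and -0.01 in Ahr-KO. The Ahr-KO values of Socs4 and Socs7 changed sign with 1 library left out, from -0.13 to 0.13 and from -0.18 to 0.07.

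Across the family, 3 of 8 members were lower in every WT MPP library than in every WT LT-HSC library, where 8.09% of all genes tested were. In Ahr-KO 4 of 8 were, Socs5 being the addition, against 10.4% of all genes. No member was higher in every MPP library in either genotype, where 8.32% of genes in WT and 11.1% in Ahr-KO were. Since the members were chosen on this difference, nothing is read from these shares. Markers of other cells also differed between the populations, with 10 megakaryocyte markers summing to 1870 to 2569 CPM in LT-HSC and 747 to 1195 in MPP, and the 11 neutrophil markers to 162 to 806 CPM in MPP. The part of these cells in the levels of the members was not tested.

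Compared between genes as CPM per kilobase of the principal transcript in GENCODE, Socs2 had the highest level in WT LT-HSC, at 19.4 ± 2.06. Socs5 followed at 15.5 ± 4.56, Cish at 14.4 ± 2.26 and Socs6 at 11.8 ± 1.29, neighbours whose mean ± SD ranges overlapped. Socs1 was at 3.79 ± 1.10, Socs3 at 2.5 ± 1.27, Socs4 at 1.79 ± 0.332 and Socs7 at 0.905 ± 0.186, and of the neighbours in this order those from Socs1 to Socs4 overlapped by the same measure. In WT MPP the order was Socs6 at 10.4 ± 1.20, Socs5 at 9.73 ± 1.09, Socs3 at 3.92 ± 0.984, Cish at 3.59 ± 0.630, Socs2 at 3.07 ± 0.238, Socs1 at 1.67 ± 0.335, Socs4 at 1.51 ± 0.190 and Socs7 at 0.799 ± 0.131, each ± SD per kilobase. There the mean ± SD ranges of Socs6 and Socs5 overlapped, as did those of Socs3, Cish and Socs2, and those of Socs1 and Socs4. In Ahr-KO Socs2 stood at 21.3 ± 1.83 in LT-HSC and 3.23 ± 0.455 in MPP. On this length Socs2 went in WT from the highest of the 8 to the fifth. Its rank depends on the length used. Over all merged exons, which for Socs2 cover 9531 bases against 2222 in the principal transcript, its WT LT-HSC level was 4.53 CPM per kilobase, below Socs5 at 11.2, Cish at 6.39 and Socs6 at 6.26. In WT MPP it was 0.717 by that length, the lowest of the 8, next to Socs7 at 0.771.

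**Figure D2:**
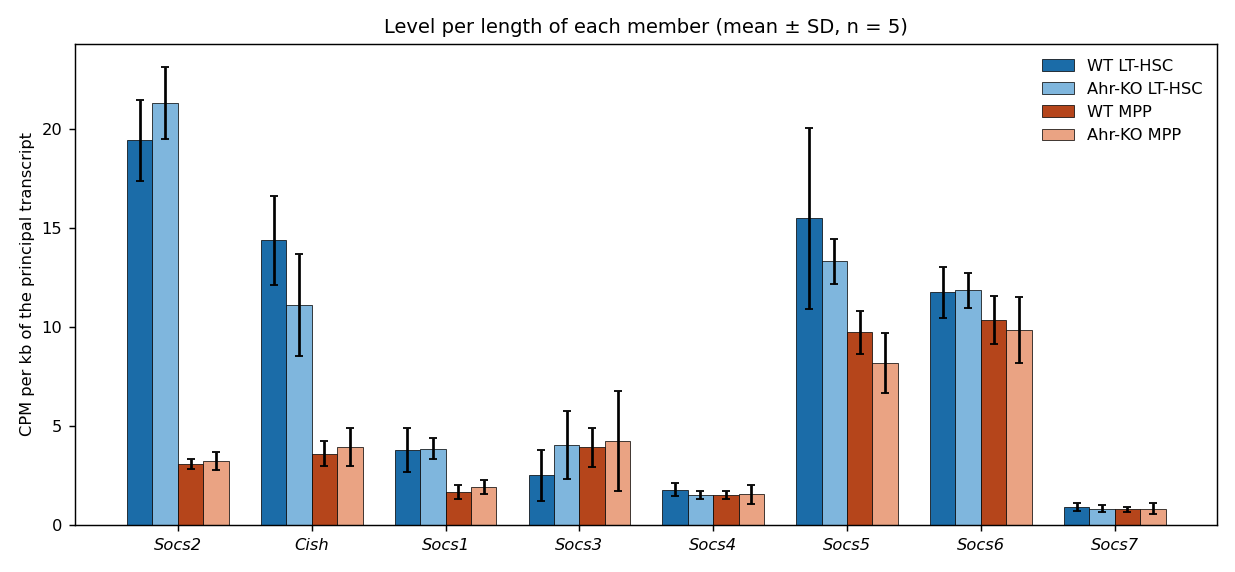
Level of each member per kilobase of its principal transcript (vertical axis, CPM per kilobase, from 0) in the 4 groups; bars are means and error bars SDs of 5 libraries. In WT LT-HSC Socs2 has the highest mean, 19.4, and in WT MPP it stands at 3.07, below Socs6, Socs5, Socs3 and Cish.

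No member passed the test between genotypes in LT-HSC. By edgeR's quasi-likelihood test with Benjamini-Hochberg adjustment over all genes, 0 of 8 members were called, where 1 of 16065 genes (0.00622%) was. At an unadjusted p under 0.05 there were 1422 such genes and no member, and neither DESeq2 nor limma voom called a member. The 2 genotypes overlapped in LT-HSC for all 8 members, whereas 3.63% of all genes did not overlap.

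Cish came nearest to the threshold in LT-HSC, with a mean of 31.7 ± 7.36 CPM in Ahr-KO against 41.0 ± 6.45 in WT (SD, n = 5 each). The log2 difference was -0.36 ± 0.17 (SE; 95% interval -0.74 to 0.03; edgeR adjusted p = 0.579). Ahr-KO LT-HSC 2 and 3 stood apart in neutrophil, erythroid and monocyte markers and, for library 3, in stromal and endothelial markers. Without them the Cish difference was -0.17 ± 0.17 (SE; edgeR adjusted p = 0.999). They also had the lowest Cish of their group, at 27.6 and 22.0 CPM, so leaving them out shrinks the difference whatever their markers. Over all alternatives for the LT-HSC comparison the Cish difference lay between -0.49 and -0.17, with edgeR, DESeq2 or limma adjusted p-values from 0.0861 to 1.

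Socs5 turned on a single library. Its log2 difference in LT-HSC was -0.20 ± 0.21 (SE; 95% interval -0.66 to 0.25; edgeR adjusted p = 0.824) over all libraries. Without WT LT-HSC 1 it was -0.37 ± 0.09 (SE; edgeR adjusted p = 0.0619), and all 5 Ahr-KO libraries, at 55.3 to 67.8 CPM, lay below the other 4 WT libraries, at 71.2 to 92.0. In that setting 203 genes were called in place of 1, and Socs5 was not among them. With limma voom and library weights it was -0.38 (limma adjusted p = 0.060). With the replicate number as a block it turned to 0.23 and was not called. That fit held only libraries 1 and 4 of each genotype, so the block and the choice of libraries cannot be told apart.

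The log2 difference of Socs3 in LT-HSC was 0.70 ± 0.40 (SE; 95% interval -0.18 to 1.58; edgeR adjusted p = 0.654), with 10.3 ± 4.41 CPM in Ahr-KO and 6.38 ± 3.23 in WT. It was 0.50 without WT LT-HSC 1 and 0.91 without Ahr-KO LT-HSC 2 and 3. Over all alternatives it ran from 0.34 with limma voom to 1.27 with the replicate block, which held only libraries 1 and 4 of each genotype. The difference of Socs2 was 0.15 ± 0.11 (SE; 95% interval -0.08 to 0.38; edgeR adjusted p = 0.731), so its interval ends below 0.39 on the log2 scale while the population difference of the same gene was -2.66. Socs4 had -0.22 ± 0.16, Socs7 -0.11 ± 0.19, Socs1 0.04 ± 0.20 and Socs6 0.03 ± 0.10 (log2 ± SE, adjusted p from 0.731 to 0.978).

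In MPP the genotypes likewise overlapped for all 8 members, where 1.17% of all genes did not overlap, and 0 of 8 members were called, against 5 of 16077 genes (0.0311%). At an unadjusted p under 0.05 there were 1065 such genes and again no member, nor did DESeq2 or limma voom call one. Socs5 had the smallest p of the 8, with 38.0 ± 7.11 CPM in Ahr-KO against 45.2 ± 5.06 in WT and a log2 difference of -0.25 ± 0.14 (SE; 95% interval -0.55 to 0.05; edgeR adjusted p = 0.776). Cish was at 0.13 ± 0.21 (SE; 95% interval -0.32 to 0.57), Socs1 at 0.19 ± 0.23 and Socs2 at 0.07 ± 0.17. Socs3 had 0.11 ± 0.36 over all libraries and -0.26 without Ahr-KO MPP 4, the library with its highest value. Socs4, Socs6 and Socs7 lay between -0.08 and 0.04.

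The effect of the genotype was also compared between the populations, as the difference of the 2 log2 differences in 1 fit of 20 libraries. No gene of 17416 passed (0%), and 1125 had an unadjusted p under 0.05 in edgeR. DESeq2 called 51 genes and limma voom 18, with no member among them. Cish had the largest ratio to its SE, at 0.50 ± 0.27 (SE; 95% interval -0.06 to 1.06; edgeR adjusted p = 0.817). Socs3 was at -0.58 ± 0.57 and Socs4 at 0.29 ± 0.27 (SE; edgeR adjusted p = 0.924 and 0.921), and the other 5 members lay between -0.08 and 0.17. The 95% intervals ran from -0.39 to 0.27 for Socs2 and from -0.43 to 0.26 for Socs6. The upper ends of the other members were 0.51 or more, and the lowest lower end was that of Socs3, at -1.77.

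**Figure D3:**
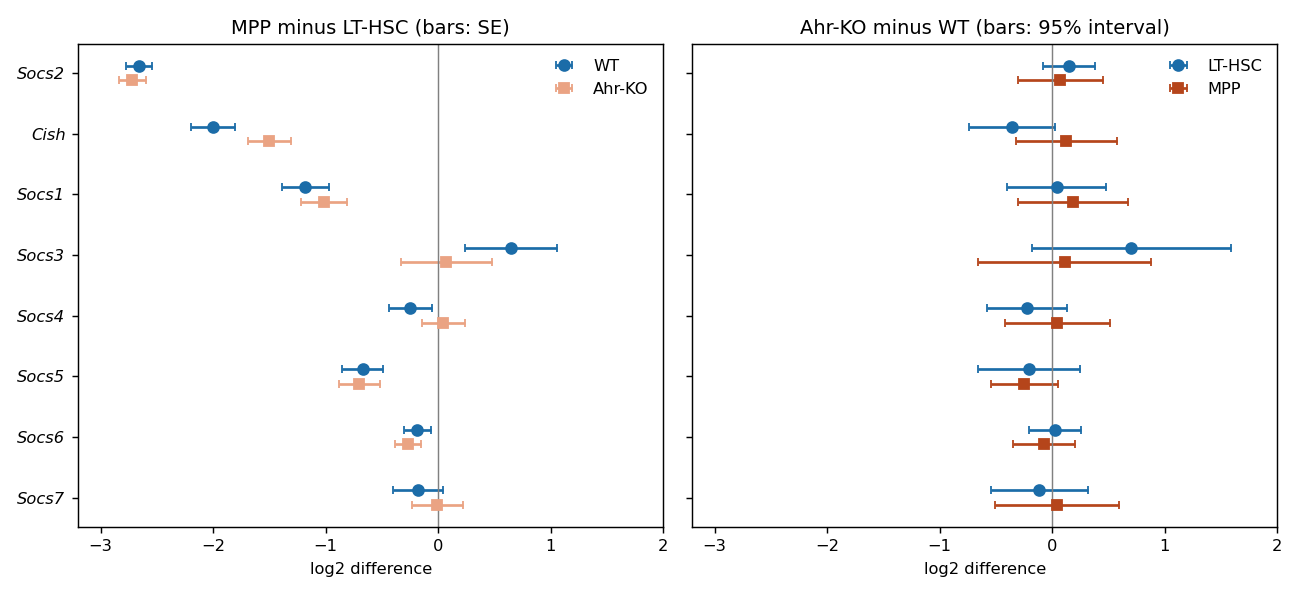
Log2 differences of each member (horizontal axis) between MPP and LT-HSC within each genotype (left, bars are SEs, chosen on this contrast) and between Ahr-KO and WT within each population (right, bars are 95% intervals). On the left Socs2 stands at -2.66 and -2.72, and on the right every interval includes 0.

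The cytokine-inducible members Socs1, Socs2, Socs3 and Cish, were compared with each other across the 10 libraries of a population, 12 relations in all, on log2 CPM. None passed after Benjamini-Hochberg adjustment of permutation p-values (100000 resamples, two-sided). The largest Pearson's r in size was that of Socs2 with Socs3 in MPP, with r = -0.655 (permutation p = 0.0406, adjusted p = 0.443) and Spearman's rho = -0.721 (permutation p = 0.0225, adjusted p = 0.144). Without the 2 libraries farthest from the median of Socs2, Ahr-KO MPP 2 and 3, r was -0.349. Leaving them out also narrows the range of Socs2, so this value does not show that the relation rests on them. On deviations from genotype means r for this pair was -0.662 (permutation p = 0.0364, adjusted p = 0.218). Socs1 with Socs2 in LT-HSC had a rho of the same size, 0.721 (permutation p = 0.024, adjusted p = 0.144), and r = 0.407. Socs2 and Cish, which both separated the populations, had r = 0.0375 in LT-HSC (permutation p = 0.915, adjusted p = 0.973) and -0.185 in MPP (permutation p = 0.61, adjusted p = 0.965). Their rho was 0.0303 and -0.236 (permutation p = 0.947 and 0.514, adjusted p = 0.947 and 0.915), and r without the 2 farthest libraries was 0.121 and -0.162. These values pool the genotypes. On deviations from genotype means r in LT-HSC was 0.442 for Socs2 with Cish (permutation p = 0.2, adjusted p = 0.483), 0.592 for Socs3 with Cish (permutation p = 0.0745, adjusted p = 0.298) and -0.737 for Socs1 with Socs3 (permutation p = 0.015, adjusted p = 0.18). Without the 2 farthest libraries these were 0.425, 0.184 and -0.386, and none of the 12 passed after adjustment.

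**Figure D4:**
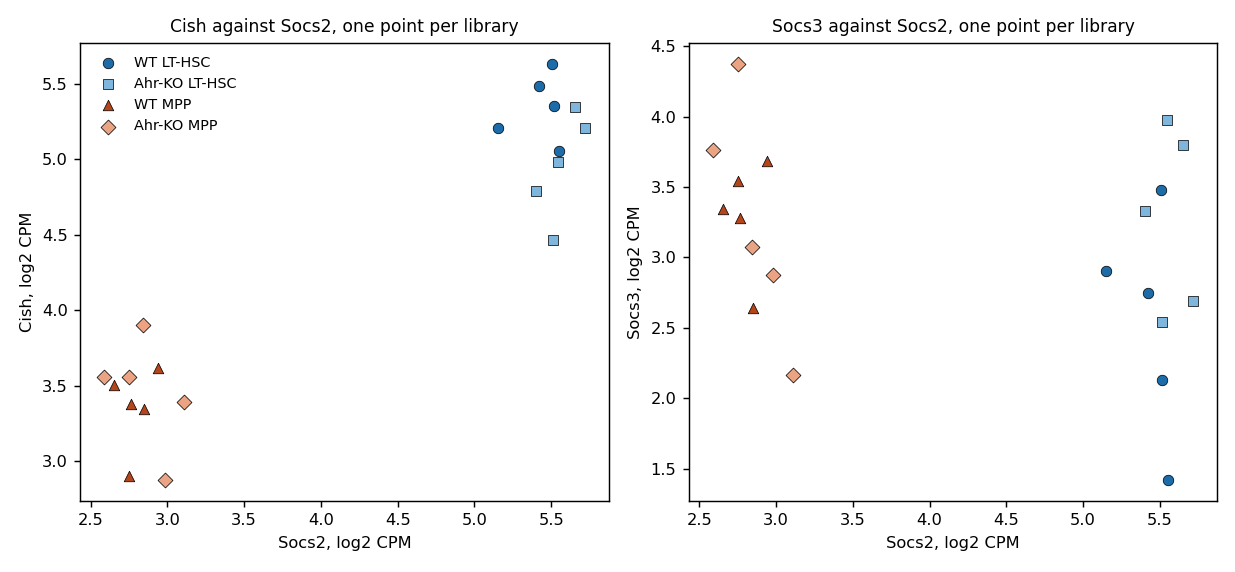
Cish (left) and Socs3 (right) against Socs2, all in log2 CPM, 1 point per library, with the 4 groups by colour and marker. Socs2 and Cish place the LT-HSC and MPP libraries in 2 separate clusters, while Socs3 covers a similar range in both.

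The genes whose log2 CPM was most like that of Socs2 over the 20 libraries, among 10281 genes that averaged 5 CPM or more, were Mycn (r = 0.986), Tmem246 (0.985), Pdzk1ip1 (0.983), Ndn (0.981) and Trim47 (0.98). Those most like Cish were Prkag2 (r = 0.967), Gata2 (0.965), Esam (0.962), Trim47 (0.961) and Scarf1 (0.96). These correlations are descriptions, over libraries that form 2 separate clusters, LT-HSC and MPP, and share their depth. Mycn, a MYC family transcription factor, had 384 and 409 CPM in WT and Ahr-KO LT-HSC and 95.5 and 101 in the MPP groups. Gata2, a transcription factor of stem cells and megakaryocyte progenitors, had 484 and 437 CPM in LT-HSC and 187 and 181 in MPP.

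After the group means were taken out, the likeness was weaker and the lists shared no gene with those above. Socs2 was then nearest to Gin1 (r = 0.789), Trip4 (0.785), Mettl16 (0.724), Zswim1 (0.718) and Blcap (0.718), and Cish to Ctdspl2 (0.834), Por (0.819), Mcur1 (0.812), Klhl4 (0.803) and Bag4 (0.736). These are the highest of 10281 values each, and no test was made of them.

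The genes around the family in the pathway were followed through 10 lists of JAK-STAT components, regulators and targets, 146 genes of which were tested between MPP and LT-HSC. In WT 25 were called higher and 24 lower in MPP, which is 49 of 146, where 22.3% of all genes were called, 11.0% higher and 11.3% lower. In Ahr-KO 21 were called higher and 31 lower, where 23.2% of all genes were called, 12.5% higher and 10.7% lower. The median log2 difference of the 146 genes was -0.058 in WT and -0.0018 in Ahr-KO. Calls are from edgeR with Benjamini-Hochberg adjustment throughout.

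The kinases and transcription factors that switch the inducible members on were lower in MPP where they were called. Of 4 JAK kinases, Jak1 and Jak2 were lower in both genotypes and Jak3 and Tyk2 were not called. Jak1 had 602 ± 35.2 CPM in WT LT-HSC and 467 ± 62.5 in WT MPP (log2 -0.37 ± 0.10, SE, edgeR adjusted p = 0.0147), and Jak2 had 158 ± 44.4 and 103 ± 18.3 (log2 -0.61 ± 0.19, SE, edgeR adjusted p = 0.0223). Among 7 STAT genes, Stat5a was lower in MPP of both genotypes. Stat3 and Stat4 were called lower in Ahr-KO MPP and not in WT MPP. In the test of the difference of effects 0 of the 7 were called. Stat4 had the smallest p there (log2 -0.20 ± 0.15, SE, edgeR adjusted p = 0.884). Stat5a had 265 ± 79.4 CPM in WT LT-HSC and 183 ± 17.5 in WT MPP (log2 -0.54 ± 0.18, SE, edgeR adjusted p = 0.0397). Stat5b did not pass (log2 -0.09 ± 0.23, SE, edgeR adjusted p = 0.832).

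Cytokine receptor genes were called in both directions. Of 31 cytokine receptor genes, 12 were higher and 6 lower in WT MPP, and 9 and 5 in Ahr-KO MPP. The share of all genes called was 22.3% in WT and 23.2% in Ahr-KO. Csf3r, the G-CSF receptor, had 66.0 ± 11.3 CPM in WT LT-HSC and 243 ± 30.8 in WT MPP (log2 1.88 ± 0.12, SE, edgeR adjusted p = 3.44e-09), and Ifnar2, a chain of the type I interferon receptor, had 77.6 ± 5.97 and 125 ± 19.1. Ghr, the growth hormone receptor that Socs2 restrains, went from 21.6 ± 5.18 to 4.08 ± 1.96 CPM (log2 -2.40 ± 0.27, SE, edgeR adjusted p = 2.89e-06).

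Of 11 receptor kinases and adaptors that SOCS proteins bind, 1 was higher and 4 were lower in MPP of each genotype. Flt3, which is also an MPP marker, had 57.1 ± 9.13 CPM in WT LT-HSC and 480 ± 70.6 in WT MPP (log2 3.07 ± 0.17, SE), Ptk2 26.1 ± 11.1 and 5.11 ± 2.01 (log2 -2.35 ± 0.36, SE), and Rasa1 108 ± 13.1 and 82.7 ± 8.62 (log2 -0.38 ± 0.10, SE). Ligands of the pathway were mostly low, and 10 of 26 listed genes were tested. Of these, 3 were higher and 3 lower in WT MPP, and 2 and 3 in Ahr-KO MPP. For both lists the share of all genes called was 22.3% in WT and 23.2% in Ahr-KO. Il12a (log2 1.35 ± 0.22, SE) and Osm (0.71 ± 0.20) were higher in WT MPP, and Il4 (-3.14 ± 0.59) and Igf1 (-1.02 ± 0.31) were lower.

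The next lists held other brakes of cytokine signalling and genes around the SOCS box. Over all genes tested, 11.0% were called higher and 11.3% lower in WT MPP, and 12.5% and 10.7% in Ahr-KO MPP. Nothing is read from list counts near these shares. Of 19 other negative regulators, such as phosphatases and PIAS proteins, 1 was lower and none higher in WT MPP, with a median log2 difference of -0.063 over the list. That gene was Sla2, an adaptor that dampens receptor signalling, at 72.9 ± 16.5 CPM in WT LT-HSC and 19.3 ± 4.16 in WT MPP (log2 -1.91 ± 0.16, SE, edgeR adjusted p = 1.02e-07). In Ahr-KO 2 of the 19 were lower. None of the 9 genes of the ubiquitin ligase that the SOCS box recruits was called in either genotype by edgeR. At an unadjusted p under 0.05 there were 1 in WT and 2 in Ahr-KO, DESeq2 called 0, and limma voom called 4 in WT and 1 in Ahr-KO. Of 18 other genes for SOCS-box proteins, 2 were higher and 3 lower in WT MPP, and 3 and 2 in Ahr-KO. Wsb1 was among the higher (log2 0.84 ± 0.13, SE), as was Neurl2 (1.28 ± 0.35), and Rab40b (-2.28 ± 0.51) and Wsb2 (-0.52 ± 0.13) were among the lower.

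Other targets of STAT5 were not uniformly lower in MPP. Of 19 other STAT5 targets, 3 were called higher and 4 lower in WT MPP, and 4 and 8 in Ahr-KO MPP. Beside these, 22.3% of all genes were called in WT and 23.2% in Ahr-KO. The cell cycle inhibitor gene Cdkn1a, at 2.85 ± 0.604 CPM in WT LT-HSC and 10.7 ± 2.83 in WT MPP, was higher (log2 1.90 ± 0.21, SE, edgeR adjusted p = 2.66e-06), as was Bcl6 (log2 1.24 ± 0.33, SE, edgeR adjusted p = 0.0108). Ccnd2, which encodes a D-type cyclin, was lower, at 531 ± 14.5 CPM in WT LT-HSC and 273 ± 25.9 in WT MPP (log2 -0.96 ± 0.09, SE, edgeR adjusted p = 6.45e-07), and so was Ghr.

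**Figure D5:**
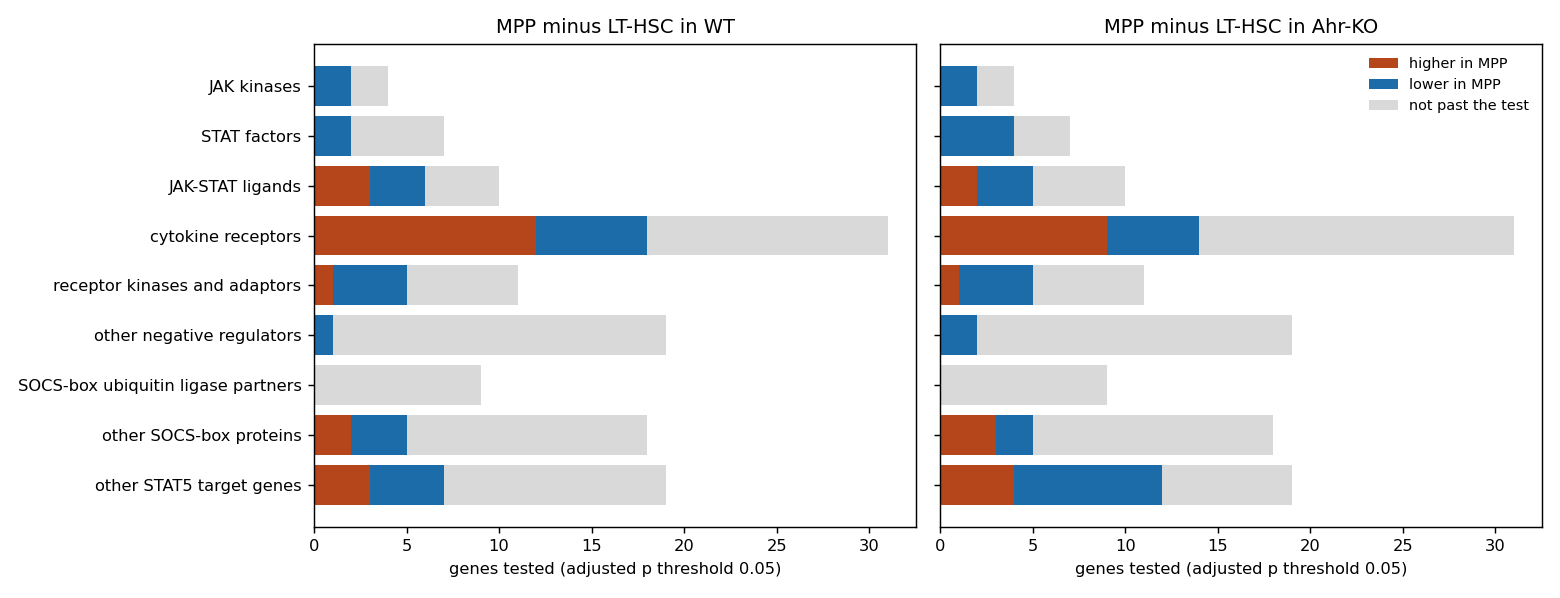
Number of genes tested in each of 9 of the 10 pathway lists (horizontal axis), split into those called higher in MPP, called lower in MPP and not past edgeR's adjusted threshold of 0.05, in WT (left) and Ahr-KO (right). Cytokine receptors hold 12 higher and 6 lower genes in WT, and the 9 ubiquitin ligase partners hold no called gene in either genotype.

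Between the genotypes none of the pathway genes passed edgeR's test, 0 of 142 in LT-HSC, 0 of 143 in MPP and 0 of 146 for the difference of effects. The smallest p in LT-HSC was that of Csf3r, whose mean was 66.0 ± 11.3 CPM in WT and 125 ± 12 in Ahr-KO (log2 0.94 ± 0.13, SE, edgeR adjusted p = 0.0950). In MPP it was that of Cdkn1a, whose mean was 10.7 ± 2.83 CPM in WT and 20.5 ± 3.55 in Ahr-KO (log2 0.94 ± 0.20, SE, edgeR adjusted p = 0.342). For the difference of effects it was Csf3r again (log2 -0.58 ± 0.17, SE, edgeR adjusted p = 0.515). At an unadjusted p under 0.05 there were 17, 18 and 7 of them. DESeq2 called 1, 1 and 0, and limma voom called 4, 0 and 0. In LT-HSC edgeR called 3 of them, all higher, without WT LT-HSC 1, and 2, both higher, without that library and Ahr-KO LT-HSC 2 and 3. The 7 STAT genes had a median log2 difference between genotypes of 0.095 in LT-HSC and -0.031 in MPP, where the median over all genes tested was 0.00079 and 0.0048.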

How the data were processed

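RNA of 20 libraries in 4 groups of 5 was analysed. The authors deposited unnormalized counts by gene symbol, 1 table for each population; both list the same 49568 symbols and were joined. Per the submitters' processing notes the build was GRCm38.p5 and the tools were DESeq2 1.12.4, Subread 1.5.0p3 (featureCounts), STAR 2.5.2b and Trimmomatic 0.36. Settings and order: not given in the sources used here.

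Counts were tested with edgeR 4.0.16 (R 4.3.3; filterByExpr, TMM, robust quasi-likelihood F test, two-sided, Benjamini-Hochberg over all genes tested, threshold 0.05 on the adjusted p). The 2 genotypes were compared on the 10 libraries of a population, and other contrasts came from 1 fit of 20 libraries. SEs are the log2 difference divided by the square root of F, and 95% intervals use the t distribution with the fit's residual degrees of freedom. Log2 CPM used a prior count of 2. Replicate libraries differed by more than sampling noise (chi-square per degree of freedom at least 11.3). Totals ran from 13712668 to 21622653 counts. The chi-square value is for pairs of libraries, not for single genes. It does not show that depth is a minor source of error for members with few reads. In WT MPP, Socs2 had 111 to 137 counts and a coefficient of variation of 7.73%, and Socs1 had 50 to 106 counts. The part of sampling noise in the spread of each member was not tested. The counts carry no molecular identifiers. Gene positions and lengths came from GENCODE M21 and promoter windows from RefSeq. On simulated data edgeR's test recovered 12% of 1.5-fold and 56% of 2-fold changes between genotypes in LT-HSC, and 22% and 80% in MPP. For the difference of effects it recovered 8% and 36%. A missing call alone therefore does not exclude such amounts. For a single member the 95% interval shows which differences remain possible. On the log2 scale it ran in LT-HSC from -0.08 to 0.38 for Socs2 and from -0.18 to 1.585 for Socs3.

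The members, the pathway and marker lists and the tests were chosen with earlier results of these data known. Every member is named. Of each pathway list up to 2 called genes in each direction with the smallest p in WT MPP against LT-HSC are named, and in genotype comparisons the called genes or, with none, the gene with the smallest p. Genes named for likeness are the 5 with the highest correlation, predicted genes and pseudogenes left out. Jak3, Tyk2, Stat3, Stat4 and Stat5b were named after their values were seen. Alternatives were DESeq2 size factors, no filter, at least 5 CPM in 5 libraries, DESeq2 1.42.0, limma 3.58.1 voom with library weights, all libraries in 1 fit, a replicate block, and each library left out. Leaving out Ahr-KO LT-HSC 2 and 3, alone or with WT LT-HSC 1, was chosen after seeing the data.
Some genes that the rule names, and 1 of the pathway lists, are not reported here.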

Additional observations from a re-analysis of the deposited data

Results flagged for a closer look

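Of 32 sets of 5 libraries, 8 members in 4 groups, 1 held a library far from the others by Dixon's gap test (critical value 0.710), where chance alone marks about 1 set in 20. In WT LT-HSC, Socs6 had 57.2 CPM in replicate 1 and 72.9 to 75.7 in the other 4 libraries, so that the gap took a share of 0.846 of the group's range. The same library had the lowest Socs5 of its group, at 36.5 CPM against 71.2 to 92.0, the lowest Socs3 and the highest Socs1. It also had the lowest share of mitochondrial counts of all libraries, 0.386% against at least 0.778% elsewhere. Without it the Ahr-KO difference of Socs6 in LT-HSC was -0.04 in place of 0.03 on the log2 scale.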

How the results depend on the processing

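No member was called in a genotype comparison or in the difference of effects under any of 19, 17 and 27 alternatives, and 472 of 504 member values kept their direction. The 272 values between populations moved by less than the spread of replicates, although those of Socs3, Socs4 and Socs7 in Ahr-KO changed sign with 1 library left out. The WT value of Socs7, -0.181 in the main fit, reached 0.000196 under another alternative. Counts of all genes called moved more. In LT-HSC (1 gene) they were 3 with DESeq2 size factors, 4 with no filter, 3 with at least 5 CPM in 5 libraries, 149 with DESeq2, 305 with limma voom, 14 with all libraries in 1 fit, 0 to 203 with 1 library left out (203 without WT LT-HSC 1, 0 without WT 5 or 6, 2 without Ahr-KO 7) and 32 without WT LT-HSC 1 and Ahr-KO 2 and 3. In MPP (5 genes) they were 3 with size factors, 50 with DESeq2, 8 with voom and 0 to 4 with 1 library left out. For the difference of effects (0 genes) they were 51 with DESeq2 and 18 with voom. Between the populations voom called 6493 genes in WT in place of 3876, and leaving out 1 library gave 3190 to 5323 in WT and 3204 to 4112 in Ahr-KO. The cause of these shifts was not tested.

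None of the values that turned was called. With voom these were Socs6 in LT-HSC (-0.0199), Socs4 in MPP (-0.0221) and the difference of effects of Socs1 (-0.0718) and Socs5 (0.103). With 1 library left out, Socs1 (-0.0658 to 0.207) and Socs6 (-0.0427 to 0.0611) turned in LT-HSC, Socs3 (-0.26 to 0.32), Socs4 (-0.10 to 0.16), Socs6 (-0.152 to 0.00604) and Socs7 (-0.093 to 0.153) in MPP, and Socs1 (-0.0012 to 0.25) and Socs5 (-0.15 to 0.14) in the difference of effects. Without Ahr-KO LT-HSC 2 and 3, Socs6 was at -0.0532 in LT-HSC. Without these and WT LT-HSC 1 it was at -0.13, and the differences of effects were -0.10 for Socs1, 0.0611 for Socs5 and 0.0559 for Socs6. The correlation of Socs2 with Socs3 in LT-HSC (0.0147) was -0.28 on deviations from genotype means and -0.0187 with size factors.

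Whether replicate numbers pair libraries was not settled. After group means were removed, same-numbered libraries of the 2 genotypes, which cannot share an animal, correlated at -0.177 to 0.0628. Between LT-HSC and MPP the values were -0.0596 to 0.0301 in WT and 0.0147 to 0.179 in Ahr-KO. In Ahr-KO, libraries 3 and 4 correlated best with their own number, and 1 and 2 did not. So few pairs cannot show whether the populations share animals, and the main fits treated libraries as independent. With the number as a replicate block, 0 genes were called in LT-HSC and in MPP, and 1483 and 2041 between the populations in WT and Ahr-KO (main 3876 and 4041). The block kept only numbers that the groups compared share. These were 1 and 4 in LT-HSC, and between the populations 1, 4 and 5 in WT and 1 to 4 in Ahr-KO. Except in MPP, these counts thus rest on fewer libraries than the main ones. Under the block Socs5 in LT-HSC was at 0.23, Socs3 and Socs7 in MPP at -0.0633 and -0.00645, and the Socs7 difference of effects at -0.0826.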

Other observations

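Socs3 was also compared with all other genes after the 4 group means were taken out, a comparison added after its scatter had been seen. Among 10281 genes over 20 libraries the highest correlations were those of Nek8 (r = 0.839), Zfp810 (0.83), Setmar (0.801), Zfp949 (0.792) and Ier3 (0.78), which is also 1 of the 17 immediate early genes summed above. These are descriptions with no test, and low levels of Socs3 share depth with the other genes of a library.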
